A study of Mus musculus with 6 samples.

Results

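The genes described here encode 4 families of cell guidance signals, the semaphorins, ephrins, Slits and netrins, and their receptors. They were chosen by gene symbol (Sema3 to Sema7, plexin, neuropilin, Eph, ephrin, Slit, Robo, netrin and Unc5 genes), and 56 of the 14549 genes measured carried such a symbol. Of the 56 members, 30 were ligand genes and 26 receptor genes. In the GENCODE M21 annotation 68 protein-coding genes fit the symbols; the other 12 (Efna3, Epha6, Epha8, Epha10, Ntn3, Ntn5, Plxnb3, Robo3, Sema4f, Slit1, Unc5a and Unc5d) were not analysed here. Polyadenylated RNA was sequenced from dissected epicardium with subepicardium of mouse hearts at E16.5. The 3 mutant libraries, called dKO 1, 2 and 3, came from Meis1 fl/fl; Meis2 fl/fl; WT1-Cre embryos, so that deletion is limited to cells in which the Wt1-driven Cre is or was active. The 3 wild-type libraries are called control 1, 2 and 4, after their labels. Each library pooled 2 hearts of 1 genotype, the hearts came from at least 3 litters, and the Cre status of control embryos was not given in the sources used here.

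Guidance families were first studied in growing axons, and the same ligands also steer vessels, lymphatics and mesenchymal cells. Class 3 semaphorins are secreted and act through a neuropilin that binds the ligand and a plexin that signals, whereas semaphorins of the other vertebrate classes are mostly membrane-bound and bind plexins directly. Ephrins stay on the cell surface, the A type by a lipid anchor and the B type by a transmembrane segment, and bind Eph receptor tyrosine kinases on neighbouring cells. Slits bind Robo receptors, and netrins bind Dcc, neogenin and Unc5 receptors. In the heart such signals take part in outflow tract septation, venous patterning and sympathetic innervation.

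Reads recovered over the 14549 genes measured summed to between 13146322 and 20635676 per library, and these sums are called plain library totals below. Values are normalised read counts (reads per 1000000 of a scaled library total), in which a single read was worth between 0.0487 and 0.0740. Meis2 had a normalised read count of 44.5, 34.8 and 44.5 in the dKO pools and 86.1, 85.6 and 63.3 in the control pools (log2 change -0.90, SE 0.16, limma adjusted p = 0.00352; exact two-sided permutation p = 0.1, the smallest possible with 3 against 3). Meis1 had 58.5, 74.1 and 65.0 in the dKO pools and 106, 63.6 and 63.4 in the control pools, so the groups overlapped and Meis1 did not pass (log2 change -0.20, SE 0.20, limma adjusted p = 0.521; exact permutation p = 0.7). These values sum reads over whole genes, deleted exons or not, and 18.3% of Meis1 exonic sequence overlaps other annotated genes. Cell type markers moved with genotype. Of the epicardial and mesothelial markers 13 of 13 were lower, with a summed normalised read count of 362 to 478 in the dKO pools and 2405 to 3512 in the control pools. Of the cardiomyocyte markers 13 of 14 were higher, with a sum of 22651 to 26129.6 in the dKO pools and 4302 to 9676 in the control pools. Fibroblast and matrix markers (9 of 10 lower, sum 12092 to 15551 in the dKO pools and 29016 to 32952 in the control pools) and lymphatic markers (6 of 7 lower, sum 148 to 198 in the dKO pools and 589.7 to 859 in the control pools) fell, while arterial (6 of 8 higher) and mural markers (7 of 10 higher) rose. Of 11 pan-endothelial markers 1 fell, with a sum of 1438 to 1616 in the dKO pools and 1190.3 to 1804 in the control pools. In pooled tissue, fewer cells of a type and less RNA per cell cannot be told apart.

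Of the 56 guidance genes 33 passed the limma test at an adjusted p of 0.05, 12 of them higher and 21 lower in the dKO pools. That is 58.9% of the members, beside a background of 22.0% over all 14549 genes. The share of members that rose was 21.4% (background 9.81%), and the share that fell was 37.5% (background 12.2%). With edgeR on recovered reads 32 members passed, 11 higher and 21 lower, where the background was 20.3% in either direction, 8.96% higher and 11.4% lower. The groups did not overlap for 38 members (67.9%), where the background was 40.4% of all genes, 21.1% lower and 19.3% higher in dKO. The median log2 change, always given as dKO minus control on log2 of the value plus 1, was -0.19 over the members and 0.0016 over all genes. Ligand genes passed in 20 of 30 cases (7 higher, 13 lower, median -0.15) and receptor genes in 13 of 26 (5 higher, 8 lower, median -0.22). These medians depended on the filter: at 5 in at least 3 libraries they were -0.37 for ligands and -0.10 for receptors, so their order turned. The largest falls were those of Sema3d, Slit3, Plxna4, Slit2 and Sema3c, and the largest rises those of Sema7a, Sema3g, Efnb3, Sema4d and Unc5b. All 56 members passed the filter on low values, as did all genes of the table. Scaling to plain library totals shifted the median of all genes to -0.093 and gave 9 higher and 22 lower members, with 1052 higher and 2019 lower among all genes, against 1427 and 1778 as deposited. With each library left out in turn, 20 of the 33 kept their call in every fit, 12 lower and 8 higher. Those fits had 1 pool fewer and called 24 to 29 members and 15.1% to 18.9% of all genes. How many of all called genes kept their call in every fit was not counted.

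**Figure D1:**
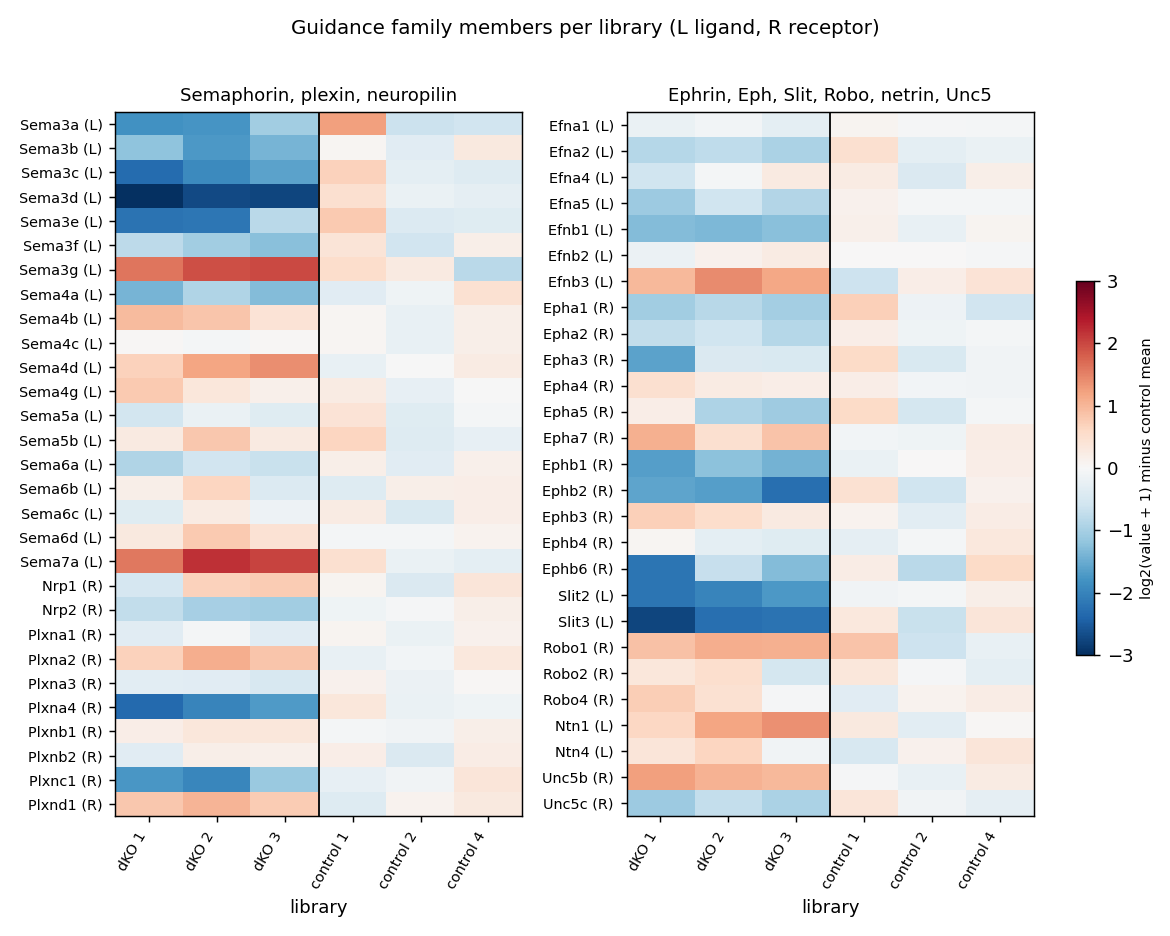
Colour shows, for each of the 56 guidance genes (rows) and each library (columns, dKO on the left), log2 of the normalised read count plus 1 minus the mean of the 3 control pools. Blue rows in the dKO columns include Sema3d, Sema3c, Plxna4, Slit2 and Slit3, and red rows include Sema7a and Sema3g.

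**Figure D2:**
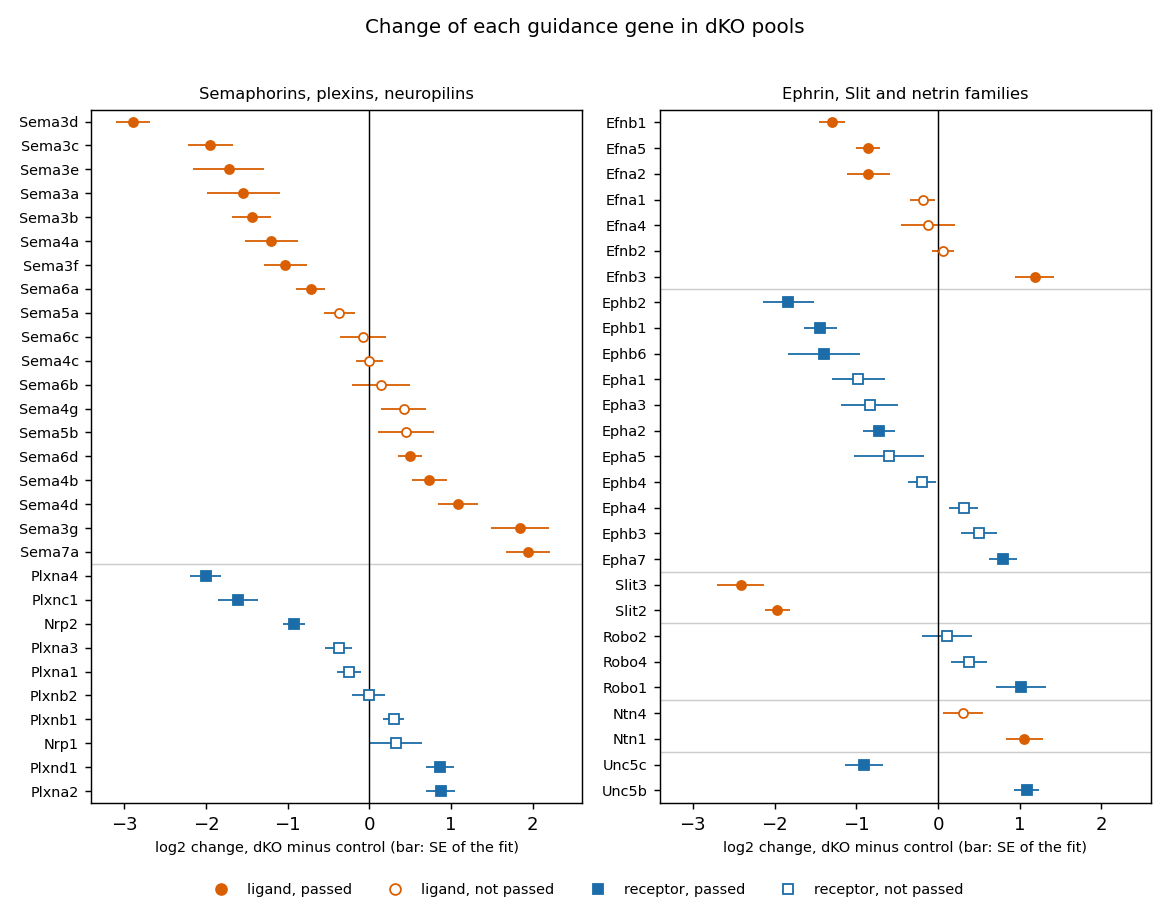
Points give the log2 change (dKO minus control) of each guidance gene and bars the standard error of the fit with 3 pools per group. Circles are ligands, squares are receptors, and filled symbols are the 33 genes that passed the limma threshold.

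All 7 class 3 semaphorins passed, 6 lower and 1 higher in the dKO pools, with a median log2 change of -1.55. Sema3d, a secreted ligand expressed by mesothelium and known for the patterning of pulmonary and coronary veins in mice (ENSMUSG00000040254, chromosome 5, 12383385 to 12588948), was measured at 43.9, 63.3 and 61.1 in dKO 1, 2 and 3, against 577, 359 and 347 in control 1, 2 and 4. The groups lay far apart, and Sema3d stood at rank 100 of all genes by size of fall (56.1 ± 10.6 in dKO and 428 ± 129.6 in control pools, SD, n = 3 each; log2 change -2.89, SE 0.21, limma adjusted p = 1.7e-05). Sema3c, a ligand needed for outflow tract septation (ENSMUSG00000028780, chromosome 5, 17574281 to 17730268), had 25.02, 33.5 and 41.4 in dKO 1, 2 and 3, against 208, 105 and 98.1 in control 1, 2 and 4, and every dKO pool was below every control pool (log2 change -1.95, SE 0.28, limma adjusted p = 0.00096). Sema3a, which repels sympathetic axons in the heart, had 7.49, 7.73 and 13.5 in dKO 1, 2 and 3, against 68.8, 18.1 and 19.1 in control 1, 2 and 4 (log2 change -1.55, SE 0.45, limma adjusted p = 0.0324). Control 1 was far above the other controls for Sema3a, and without control 1 the log2 change was -0.93 (limma adjusted p = 0.0348). Sema3e, which can bind Plxnd1 without a neuropilin, had 2.08, 2.18 and 7.19 in the dKO pools and 23.4, 9.73 and 9.99996 in the control pools, with dKO 3 above the other dKO pools (log2 change -1.72, SE 0.44, limma adjusted p = 0.0183). Sema3b had 8.67, 5.73 and 7.38 in the dKO pools and 21.95, 16.6 and 26.1 in the control pools (log2 change -1.44, SE 0.23, limma adjusted p = 0.00200). Sema3f, a ligand of Nrp2, had 12.8, 10.6 and 8.99 in the dKO pools and 30.4, 15.2 and 25.9 in the control pools (log2 change -1.03, SE 0.26, limma adjusted p = 0.0186). The exception was Sema3g, known from arterial endothelium (ENSMUSG00000021904, chromosome 14, 31217860 to 31230352), which had 7.55, 9.73 and 10.2 in dKO 1, 2 and 3, against 3.06, 2.39 and 0.603 in control 1, 2 and 4 (log2 change 1.85, SE 0.36, limma adjusted p = 0.00497). Its control values were low and spread over a wide range, with 9 reads in control 4 and 121 to 208 reads in the dKO pools.

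Some of these calls were lost with 1 library left out, where fewer of all genes were called too (15.1% to 18.9%, beside 22.0%). The call of Sema3a was lost without dKO 1 or dKO 2 (limma adjusted p = 0.0911 and 0.0957). Sema3e was not called without dKO 1 or dKO 2 (limma adjusted p = 0.0579 and 0.0655). For Sema3f the same happened without dKO 2, dKO 3, control 1 or control 4 (limma adjusted p = 0.0537, 0.0693, 0.0511 and 0.0631). Sema3b, Sema3c, Sema3d and Sema3g passed with any 1 library left out.

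**Figure D3:**
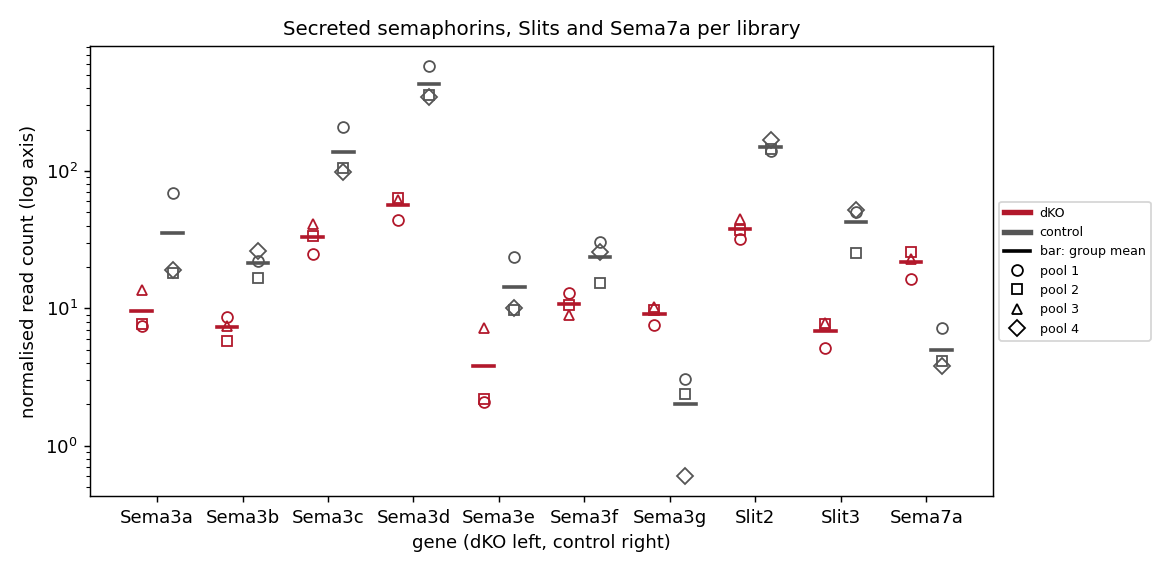
Normalised read counts (log axis) of the class 3 semaphorins, Slit2, Slit3 and Sema7a in each library, dKO left and control right for each gene, with bars at the group means. Groups do not overlap for any of these 10 genes, and Sema3d lies between 43.9 and 63.3 in the dKO pools and between 347 and 577 in the control pools.

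Expressed per kilobase of exon (GENCODE M21), the summed level of the 7 class 3 genes was 15.3, 18.2 and 20.2 in dKO 1, 2 and 3, against 115, 65.7 and 67.1 in control 1, 2 and 4. The groups did not overlap, and the mean was 17.9 ± 2.44 in dKO and 82.6 ± 28.01 in control pools (SD, n = 3 each). The makeup of this sum differed as well. Sema3d supplied 36.3% ± 3.66 in dKO and 60.7% ± 2.65 in control pools, and Sema3g supplied 11.2% ± 0.464 in dKO and 0.529% ± 0.306 in control pools. The share of Sema3c was 25.8% ± 2.95 in dKO and 22.7% ± 2.48 in control pools, with overlapping groups. Per kilobase, Sema3d ranked first of 19 semaphorins in control pools, and in dKO pools it came after Sema6d and Sema7a. Sema7a and Sema3d did not differ beyond their spread in the dKO pools (6.59 ± 1.47 and 6.52 ± 1.24 per kilobase).

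Of the 7 class 3 genes 6 lie in clusters: Sema3a, Sema3c, Sema3d and Sema3e within 5.35 megabases of chromosome 5 (GRCm38, 12383385 to 17730268), and Sema3b and Sema3f within 0.113 megabases of chromosome 9 (107597674 to 107710475). These intervals were looked at after the values were seen. On chromosome 5 the interval held 6 other measured genes, of which 1 rose and 5 did not pass. Among those that did not pass, Gm10108 is annotated as a processed pseudogene. Gm43719, Gm42445, Pclo and Hgf had low values, with group means from 0.99 (Pclo, dKO pools) to 2.97 (Gm43719, control pools). The gene that rose was Cacna2d1, which encodes a calcium channel subunit, with a normalised read count of 84.3, 109.8 and 106.04 in the dKO pools and 55.1, 59.7 and 56.7 in the control pools (log2 change 0.79, SE 0.13). Hgf, the ligand of the receptor Met, lies between Sema3e and Sema3c and did not pass (log2 change 0.53, SE 0.44). On chromosome 9 the interval held Gnai2 (log2 change 0.098, SE 0.14) and Slc38a3 (log2 change -0.52, SE 0.31), and neither passed. Slc38a3 also had low values (mean 1.53 in dKO and 2.73 in control pools).

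Promoter sequence from RefSeq (GRCm38.p6) was read for the members with the largest falls and rises, since MEIS proteins bind the hexamer TGACAG. The hexamer or its reverse complement CTGTCA was searched on all 250 bases before each RefSeq start. The printed stretch stops short where the GENCODE M21 gene begins within those bases, which leaves 237 bases for Sema3g, and the bases of Slit3 are not shown for that reason. Sequences are written on the plus strand, which is the strand of all these genes, with the hexamer in capitals. The printed stretches are chr5:12382916-12383165 for Sema3d, chr9:57939862-57940111 for Sema7a and chr14:31217623-31217859 for Sema3g.
Sema3d: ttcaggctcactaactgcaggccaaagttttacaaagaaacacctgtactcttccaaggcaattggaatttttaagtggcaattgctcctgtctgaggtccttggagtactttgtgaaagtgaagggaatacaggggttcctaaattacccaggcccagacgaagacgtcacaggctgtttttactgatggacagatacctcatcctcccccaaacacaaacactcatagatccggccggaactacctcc
Sema7a: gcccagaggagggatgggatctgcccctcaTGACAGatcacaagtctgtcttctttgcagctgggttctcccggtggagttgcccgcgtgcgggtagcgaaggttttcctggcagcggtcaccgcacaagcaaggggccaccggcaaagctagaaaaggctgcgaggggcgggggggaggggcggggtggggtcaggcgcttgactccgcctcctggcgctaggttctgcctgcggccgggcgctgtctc
Sema3g: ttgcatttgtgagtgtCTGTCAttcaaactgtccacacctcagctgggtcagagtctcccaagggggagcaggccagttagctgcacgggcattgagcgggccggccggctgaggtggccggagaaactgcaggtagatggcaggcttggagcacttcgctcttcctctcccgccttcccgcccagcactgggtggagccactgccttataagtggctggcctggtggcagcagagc
In the 250 bases searched, Sema7a and Sema3g held 1 copy each, and Sema3d and Slit3 held 0. Over 32851 mouse promoter windows of 250 bases 15.9% held the hexamer. Counted by gene, with a copy in any of its entries, it was 4851 of 27025 genes and 8 of the 49 members with an entry. Among members that rose it was 4 of 10, and among those that fell 0 of 17. These matches describe letters in a window and say nothing of binding.

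Semaphorins of classes 4 to 7 moved in both directions. Of 12 genes 4 rose, 2 fell and 6 did not pass, with a median log2 change of 0.28. Sema7a, a lipid-anchored ligand of Plxnc1 and of integrins (ENSMUSG00000038264, chromosome 9, 57940112 to 57962865), had 16.4, 25.9 and 22.97 in dKO 1, 2 and 3, against 7.13, 4.12 and 3.78 in control 1, 2 and 4. All dKO pools were above all control pools, and its mean was 21.7 ± 4.86 in dKO and 5.01 ± 1.85 in control pools (SD, n = 3 each; log2 change 1.94, SE 0.27, limma adjusted p = 0.00087). Sema4d, a ligand of Plxnb1, had 11.8, 17.1 and 20.05 in the dKO pools and 5.84, 6.93 and 8.41 in the control pools (log2 change 1.09, SE 0.25, limma adjusted p = 0.0107). Sema4b had 20.1, 18.5 and 13.4 in the dKO pools and 10.3, 8.27 and 11.2 in the control pools (log2 change 0.74, SE 0.22, limma adjusted p = 0.0366). For Sema6d, a transmembrane ligand of Plxna1 and the semaphorin with the highest level of classes 5 to 7 per kilobase, the values were 123, 177 and 136 in the dKO pools and 97.04, 97.4 and 109.7 in the control pools (log2 change 0.50, SE 0.15, limma adjusted p = 0.0337). On the log2 scale the rise of Sema6d was smaller than those of Sema7a and Sema4d. Sema6a, a transmembrane ligand of A-type plexins, fell and had 20.6, 25.8 and 24.1 in the dKO pools and 44.3, 30.9 and 43.8 in the control pools (log2 change -0.72, SE 0.18, limma adjusted p = 0.0171). Sema4a had 0.591, 1.22 and 0.706 in the dKO pools and 2.32, 2.84 and 4.73 in the control pools, or 9 to 16 reads per dKO pool and 37 to 74 reads per control pool (log2 change -1.20, SE 0.32, limma adjusted p = 0.0233). Sema4c, a ligand of Plxnb2 and the class 4 gene with the highest level per kilobase, had 23.1, 21.6 and 23.1 in the dKO pools and 23.7, 19.2 and 25.5 in the control pools, with overlapping groups (log2 change -0.003, SE 0.17). The other members that did not pass were Sema5a (log2 change -0.37), Sema6c (-0.081), Sema6b (0.14), Sema4g (0.42) and Sema5b (0.45).

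Of the 6 calls in classes 4 to 7, only that of Sema7a held with any 1 library left out. Sema4d was not called without dKO 3 (limma adjusted p = 0.0554). Sema4b lost its call without dKO 1, dKO 2, control 1, control 2 or control 4 (limma adjusted p = 0.102, 0.120, 0.0527, 0.110 and 0.0504), and Sema6d without dKO 2, dKO 3, control 1 or control 2 (limma adjusted p = 0.129, 0.0731, 0.0633 and 0.0910). Sema6a did not pass without dKO 1 or control 4 (limma adjusted p = 0.0503 and 0.0625). The fall of Sema4a was not called without dKO 1, dKO 3, control 2 or control 4 (limma adjusted p = 0.0587, 0.0747, 0.0573 and 0.0932).

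Semaphorin receptors split in the same way, with 2 of 10 higher, 3 lower and 5 that did not pass. Plxna4, which signals for Sema3a together with a neuropilin (ENSMUSG00000029765, chromosome 6, 32144268 to 32588192), had 42.9, 54.6 and 67.2 in dKO 1, 2 and 3, against 276, 191 and 199.6 in control 1, 2 and 4. Its dKO mean was 24.7% of the control mean, with no overlap (54.9 ± 12.2 in dKO and 222 ± 46.8 in control pools, SD, n = 3 each; log2 change -2.001, SE 0.19, limma adjusted p = 8.2e-05). Plxnc1, the plexin that binds Sema7a, had 11.3, 9.65 and 18.1 in dKO 1, 2 and 3, against 34.1, 37.2 and 52.1 in control 1, 2 and 4 (log2 change -1.61, SE 0.25, limma adjusted p = 0.00148). Nrp2, the co-receptor of Sema3f and of lymphatic growth factors, had 113, 95.1 and 90.9 in dKO 1, 2 and 3, against 173, 185 and 213 in control 1, 2 and 4, with no overlap (99.8 ± 11.9 in dKO and 190.03 ± 20.6 in control pools, SD, n = 3 each; log2 change -0.92, SE 0.13, limma adjusted p = 0.00102). Plxnd1, a plexin of endothelial cells that binds Sema3e, rose and had 186, 215 and 180.3 in the dKO pools and 80.6, 114 and 129 in the control pools (log2 change 0.86, SE 0.17, limma adjusted p = 0.00557). Plxna2, which takes part in outflow tract septation, had 47.4, 63.5 and 52.98 in the dKO pools and 24.9, 27.5 and 36.3 in the control pools (log2 change 0.87, SE 0.18, limma adjusted p = 0.00628). These 5 calls held with any 1 library left out. Nrp1, the co-receptor of Sema3a and of VEGF, had 62.1, 144 and 151 in the dKO pools and 93.1, 65.01 and 113 in the control pools. Its dKO pools were split, with dKO 1 below every control pool, and Nrp1 did not pass (log2 change 0.32, SE 0.32, limma adjusted p = 0.509). Without dKO 1 it was called as higher (log2 change 0.73, limma adjusted p = 0.0401). Plxnb2, with the highest mean level per kilobase among the plexins not called, had 108, 154 and 153 in the dKO pools and 158, 101 and 161 in the control pools (log2 change -0.0058, SE 0.20). Plxna1 (-0.25), Plxna3 (-0.38) and Plxnb1 (0.30) did not pass either, on the same log2 scale.

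The A-type plexins differed in makeup between the groups. Their summed level per kilobase was 12.8, 15.6 and 14.6 in dKO 1, 2 and 3, against 30.5, 22.9 and 25.8 in control 1, 2 and 4. Of this sum Plxna4 supplied 27.1% ± 4.78 in dKO and 59.3% ± 4.58 in control pools, and Plxna2 supplied 22.1% ± 1.44 in dKO and 6.64% ± 1.76 in control pools. Plxna1 held 34.99% ± 2.52 in dKO and 22.8% ± 2.25 in control pools (SD, n = 3 each). Of the plexin A genes Plxna4 ranked first in each control pool, and Plxna1 in dKO 1 and dKO 2.

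Among the ephrins 3 of 7 fell, 1 rose and 3 did not pass. Efnb1, a transmembrane ligand of EphB receptors, had 16.1, 15.3 and 16.49 in dKO 1, 2 and 3, against 45.2, 34.9 and 42.8 in control 1, 2 and 4. The dKO pools differed little among themselves and all lay below the controls (15.9 ± 0.617 in dKO and 40.96 ± 5.39 in control pools, SD, n = 3 each; log2 change -1.30, SE 0.16, limma adjusted p = 0.00043). Efnb3, also a B-type ligand, moved the other way and had 93.5, 128 and 107 in dKO 1, 2 and 3, against 30.6, 54.3 and 63.4 in control 1, 2 and 4 (log2 change 1.18, SE 0.24, limma adjusted p = 0.00637). Efnb2, the B-type ligand known from arteries, had 67.5, 83.2 and 90.1 in the dKO pools and 77.4, 77.2 and 74.6 in the control pools, with overlapping groups (log2 change 0.061, SE 0.13). Of the summed B-type ephrin level per kilobase, Efnb1 supplied 9.23% ± 1.41 in dKO and 31.2% ± 6.46 in control pools, and Efnb3 supplied 67.7% ± 2.90 in dKO and 39.6% ± 9.84 in control pools. Efna5, the A-type ligand with the highest mean level per kilobase over the 6 libraries, had 43.98, 62.7 and 50.9 in the dKO pools and 104, 91.1 and 90.4 in the control pools (log2 change -0.86, SE 0.15, limma adjusted p = 0.00290). In the dKO pools Efna5 and Efna1 did not differ beyond their spread (13.0 ± 2.35 and 12.7 ± 0.898 per kilobase, SD, n = 3). Efna2 had 5.38, 5.88 and 5.04 in the dKO pools and 15.2, 8.52 and 9.11 in the control pools (log2 change -0.85, SE 0.26, limma adjusted p = 0.0400), and lost its call without dKO 1, dKO 2, dKO 3, control 1 or control 4 (limma adjusted p = 0.0738, 0.0795, 0.114, 0.138 and 0.0559). Efna1 (log2 change -0.19) and Efna4 (-0.12) did not pass. The calls of Efnb1, Efnb3 and Efna5 held with any 1 library left out.

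Of the 11 Eph receptors 4 fell, 1 rose and 6 did not pass, with a median log2 change of -0.73. Of the 5 EphB genes 3 fell. Ephb2 had 5.19, 4.85 and 2.85 in dKO 1, 2 and 3, against 24.5, 11.3 and 19.1 in control 1, 2 and 4 (log2 change -1.83, SE 0.31, limma adjusted p = 0.00256). Ephb1 had 6.25, 8.69 and 7.58 in dKO 1, 2 and 3, against 18.9, 21.9 and 25.2 in control 1, 2 and 4 (log2 change -1.44, SE 0.21, limma adjusted p = 0.00102). In both genes every dKO pool was below every control pool, and the calls held with any 1 library left out. Ephb6, a receptor without kinase activity, had 1.03, 4.77 and 2.75 in the dKO pools and 9.91, 4.31 and 12.8 in the control pools, with dKO 2 above control 2 (log2 change -1.40, SE 0.44, limma adjusted p = 0.0477). Its call was lost with edgeR (edgeR adjusted p = 0.0686) and without dKO 1, dKO 3, control 1 or control 4 (limma adjusted p = 0.131, 0.0962, 0.0989 and 0.153). Ephb4, the receptor of Efnb2 known from veins and the EphB gene with the highest level per kilobase, had 117, 92.3 and 87.3 in the dKO pools and 93.03, 108 and 141 in the control pools, with overlapping groups (log2 change -0.20, SE 0.17, limma adjusted p = 0.465). Ephb3 did not pass (log2 change 0.50, SE 0.22), although its groups did not overlap.

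Among EphA genes, Epha7 rose and had 105, 69.6 and 90.98 in dKO 1, 2 and 3, against 46.7, 45.1 and 58.6 in control 1, 2 and 4 (log2 change 0.80, SE 0.17, limma adjusted p = 0.00867). It had the highest level per kilobase of the EphA genes and kept its call with any 1 library left out. Epha2, the receptor of Efna1, fell and had 9.54, 10.5 and 8.70 in the dKO pools and 19.1, 14.9 and 15.7 in the control pools (log2 change -0.73, SE 0.20, limma adjusted p = 0.0241). Its call was lost without dKO 3, control 1 or control 4 (limma adjusted p = 0.0910, 0.0780 and 0.0513). Epha1 had 4.38, 5.22 and 4.46 in the dKO pools and 17.4, 9.03 and 6.51 in the control pools and did not pass with limma (log2 change -0.97, limma adjusted p = 0.0548) but did with edgeR (edgeR adjusted p = 0.0451). Epha3 (-0.84), Epha4 (0.31) and Epha5 (-0.60) did not pass on the log2 scale, and Epha5 had only 5 reads in dKO 2 and in dKO 3. Of the summed EphA level per kilobase, Epha7 supplied 53.3% ± 7.16 in dKO and 30.8% ± 7.24 in control pools, while that sum was 16.7 ± 1.22 in dKO and 16.9 ± 3.22 in control pools (SD, n = 3 each) and its groups overlapped.

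Both Slit genes measured fell, and none of the 3 Robo genes did. Slit2, a secreted repellent that binds Robo1 and Robo2 (ENSMUSG00000031558, chromosome 5, 47983138 to 48307733), had 31.8, 37.5 and 44.6 in dKO 1, 2 and 3, against 139, 144 and 168 in control 1, 2 and 4. Every dKO pool was far below every control pool (37.96 ± 6.42 in dKO and 150.1 ± 15.5 in control pools, SD, n = 3 each; log2 change -1.96, SE 0.15, limma adjusted p = 2.3e-05). Slit3, its paralog (ENSMUSG00000056427, chromosome 11, 35121224 to 35708507), had 5.13, 7.66 and 7.87 in dKO 1, 2 and 3, against 50.4, 25.2 and 51.9 in control 1, 2 and 4 (log2 change -2.41, SE 0.29, limma adjusted p = 0.00035), with control 2 below the other controls. Both calls held with any 1 library left out. Robo1 had 55.2, 64.2 and 63.2 in dKO 1, 2 and 3, against 54.2, 18.7 and 25.2 in control 1, 2 and 4 (log2 change 1.01, SE 0.31, limma adjusted p = 0.0393). Control 1 was close to dKO 1, and the rise was not called with edgeR (edgeR adjusted p = 0.0888) or without dKO 1, dKO 2, dKO 3, control 2 or control 4 (limma adjusted p = 0.0679, 0.105, 0.101, 0.118 and 0.113). Robo4, a receptor of endothelial cells and the Robo gene with the highest level per kilobase, had 55.05, 45.1 and 32.1 in the dKO pools and 25.8, 35.4 and 38.6 in the control pools and did not pass (log2 change 0.38, SE 0.22). Robo2 did not pass either (log2 change 0.11, SE 0.30).

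Netrins and their Unc5 receptors gave 2 rises and 1 fall among 4 genes. Ntn1, the founding secreted netrin, had 35.4, 52.2 and 59.7 in dKO 1, 2 and 3, against 27.8, 17.8 and 23.1 in control 1, 2 and 4 (log2 change 1.06, SE 0.22, limma adjusted p = 0.00747). The lowest dKO pool was above the highest control. Ntn4, a laminin-related netrin, had 40.7, 49.9 and 28.9 in the dKO pools and 22.3, 34.1 and 40.3 in the control pools, with overlapping groups (log2 change 0.30, SE 0.25). Unc5b, the netrin receptor of endothelial cells, had 124, 110.04 and 104 in dKO 1, 2 and 3, against 50.9, 45.2 and 62.9 in control 1, 2 and 4 (log2 change 1.08, SE 0.15, limma adjusted p = 0.00078). Unc5c fell and had 6.62, 8.84 and 7.38 in the dKO pools and 19.8, 14.01 and 12.3 in the control pools (log2 change -0.91, SE 0.23, limma adjusted p = 0.0194). Ntn1 and Unc5b kept their calls with any 1 library left out, and Unc5c lost its call without dKO 3 or control 1 (limma adjusted p = 0.0618 and 0.0644).

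To set ligands against receptors within a library, the log2 ratio of their levels per kilobase was taken for 16 chosen pairs, as a description without a test. Each pair held a ligand and a receptor of 1 family, among them Slit2 with Robo4, and direct binding is not implied for every pair. In 12 pairs the groups did not overlap, 7 with a lower and 5 with a higher ratio in dKO pools. Of single genes 40.4% did not overlap, and no such share was computed for ratios of other gene pairs. Some partners that both fell, such as Sema3a with Plxna4 and Efnb1 with Ephb1, were not among the pairs. The Slit3 to Robo1 ratio was -1.98, -1.62 and -1.56 in the dKO pools and 1.34, 1.87 and 2.48 in the control pools (difference of means -3.62). For Slit2 to Robo1 it was -1.42, -1.40 and -1.13 in the dKO pools and 0.73, 2.32 and 2.11 in the control pools (difference -3.03). Per kilobase, the ligand of both pairs was above its receptor in every control pool and below it in every dKO pool. Sema3d to Nrp1 behaved alike, at -0.32, -0.998 and -1.12 in the dKO pools and 2.82, 2.65 and 1.80 in the control pools (difference -3.24). The opposite turn was seen for Sema7a to Plxnc1, at 1.88, 2.76 and 1.68 in the dKO pools and -0.92, -1.84 and -2.45 in the control pools (difference 3.84). Sema3g to Nrp2 also had higher ratios, at -2.52, -1.91 and -1.78 in the dKO pools and -4.44, -4.89 and -7.08 in the control pools (difference 3.40). The ratio of Efnb2 to Ephb4, the arterial and venous partners, overlapped between groups at -1.36, -0.71 and -0.52 in the dKO pools and -0.83, -1.05 and -1.48 in the control pools. So did Ntn1 to Unc5b, where both genes rose, at -1.82, -1.08 and -0.80 in the dKO pools and -0.88, -1.35 and -1.45 in the control pools. The sign of a ratio, unlike its difference between groups, depends on the exon lengths used. Without division by length, Slit3 was below Robo1 in control 1 (normalised read counts 50.4 and 54.2). Pairs that share a receptor are not independent, and these are RNA levels in mixed tissue, not levels in 1 cell.

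**Figure D4:**
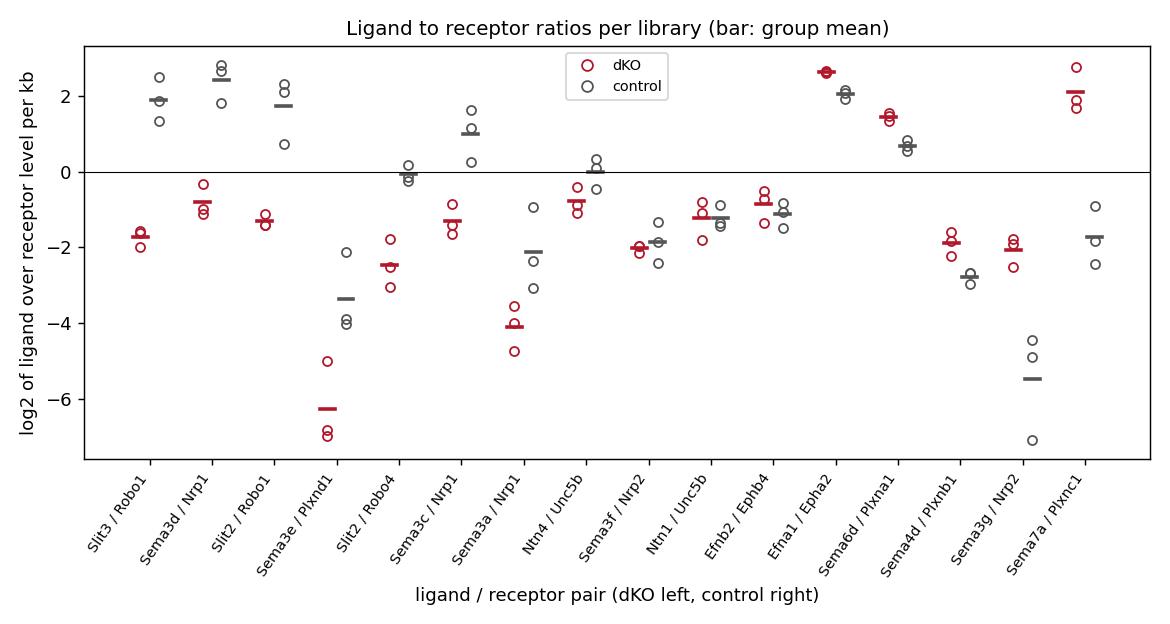
Each circle is the log2 ratio of ligand to receptor level per kilobase in 1 library, for 16 pairs ordered by the difference of group means, with dKO left and control right and bars at the group means. Pairs of Slit2, Slit3, Sema3a, Sema3c, Sema3d and Sema3e have lower ratios in dKO pools, and Sema7a to Plxnc1 lies above 0 in every dKO pool and below 0 in every control pool.

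Genes that act beside or below these receptors were counted in lists that left out the members and were chosen with earlier results known, beside the background of 22.0% of all genes called. Of 21 semaphorin and plexin effectors and co-receptors 5 rose and 3 fell (38.1% called). The smallest p-values were those of Dpysl5, a collapsin response mediator (4.68 in dKO and 38.6 in control pools, log2 change -2.80), its paralog Dpysl3 (597 in dKO and 249 in control pools, 1.26) and Met, a partner of B-type plexins (13.1 in dKO and 69.9 in control pools, -2.24). Of 20 Slit and Robo effectors and co-receptors 2 rose and 6 fell (40.0% called), among them the heparan sulphate proteoglycan genes Gpc1 (103 in dKO and 23.8 in control pools, log2 change 2.18) and Sdc4 (18.4 in dKO and 58.1 in control pools, -1.59) and the Robo-binding Flrt1 (0.688 in dKO and 5.02 in control pools, -1.84). Of 17 Eph and ephrin effectors 1 rose and 3 fell (23.5% called), a share near the background. The smallest p-values were those of Vav2 (12.8 in dKO and 28.3 in control pools, log2 change -1.08), Abi1 (76.4 in dKO and 125 in control pools, -0.70) and Chn1 (39.4 in dKO and 21.3 in control pools, 0.87). Of 12 other netrin receptors, netrin-like ligands and effectors with values (of 19 listed) 0 passed with limma, 0 with edgeR and 2 with DESeq2, and 5 had an unadjusted limma p under 0.05.

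The mean log2 value of the cardiomyocyte markers was 9.57, 9.27 and 9.26 in the dKO pools and 6.95, 7.90 and 8.06 in the control pools, so the score and genotype moved together. The groups did not overlap in the score, so a fit with it as a covariate cannot separate genotype from cardiomyocyte content. With the score as a covariate, 5 of the 56 members passed, beside 1.63% of all genes. They were Sema3d (log2 change -1.59, SE 0.30, limma adjusted p = 0.0265), Slit2 (-2.09, SE 0.37, limma adjusted p = 0.0189), Nrp2 (-1.39, SE 0.30, limma adjusted p = 0.0431), Sema7a (3.28, SE 0.55, limma adjusted p = 0.0126) and Robo1 (2.96, SE 0.42, limma adjusted p = 0.0056). Of the called members, Sema3a, Sema3e, Efna2, Unc5c, Efnb3 and Plxnd1 changed sign in that fit, and none of them passed there. The fall of epicardial, matrix and lymphatic markers and the rise of arterial and mural markers went along with the falls and rises described, and their part in these was not tested. Schwann markers with values (4 of 8) had a summed normalised read count of 29.8 to 32.4 in the dKO pools and 35.4 to 42.2 in the control pools, and 1 of them fell. The neuronal markers with values (3 of 10) had sums of 26.003 to 34.8 in the dKO pools and 16.3 to 18.9 in the control pools, and 1 of them rose. Most of these sums came from that gene, Uchl1 (mean 27.9 in dKO and 13.8 in control pools). Stmn2 (log2 change -0.58) and Elavl4 (0.60) had low values and did not pass. Macrophage markers had sums of 139 to 185 in the dKO pools and 317 to 468 in the control pools, with 3 of 7 lower, and of 4 venous markers 2 were lower and 1 higher. No listed marker with values was at 0 in all libraries.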

How the data were processed

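The authors deposited 1 table of normalised read counts (a signal per gene, not raw counts) for 6 libraries. Per the submitters' processing notes, cutadapt, RSEM 1.3.1 and GRCm38 were used; the annotation, the normalization and any filter were not given in the sources used here. Whole reads could be recovered: divided by a constant of each library and less 0.5, 87294 of 87294 values were whole within 0.01 reads. The labels do not say that the kit keeps strand, and 10.7% (Plxna1) is the largest share of exonic bases that a member shares with another gene.

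Values were tested as log2(value + 1) with limma 3.58.1 (trended variances, R 4.3.3), two-sided, with Benjamini-Hochberg adjustment over 14549 genes and a threshold of 0.05, after a filter of at least 1 in 3 libraries. A fold change on this scale understates the change of low genes. On the recovered reads edgeR 4.0.16 called 2956 genes, and DESeq2 1.42.0 was a further alternative. The fits were also tested on simulated data. Levels per kilobase used exon lengths from GENCODE M21, in which 14530 identifiers were found. The length of a gene was that of all its annotated exons merged, not that of 1 transcript. Pools are separate animals of 1 genotype, and p-values measure the spread between pools. Every member that passed and the member with the highest level per kilobase in each subfamily were named with values, and the up to 3 list genes with the smallest p-values among those that passed. The members and lists were chosen with earlier results of these data known. The result of 1 effector list is not reported here.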

Additional observations from a re-analysis of the deposited data

How the results depend on the processing

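Pseudocounts of 0.5 and 4, a filter at 5 in at least 3 libraries, no variance trend, quantile normalization, plain library totals, edgeR and DESeq2 kept the counts of higher and lower members and of all genes within 1.5 times those given, and removing the filter changed nothing. The filter at 5 gave a ligand median of -0.37 and a receptor median of -0.10. Members called ran from 29 (no variance trend) to 34 (DESeq2). With the cardiomyocyte score as a covariate 53 genes were higher and 184 lower, with 2 and 3 members, and the median log2 change was 0.14 for ligands and 0.084 for receptors. In that fit the log2 change turned for Efna2 (0.23), Efnb3 (-0.10), Ntn4 (-0.86), Plxnd1 (-0.0089), Robo4 (-0.64), Sema3a (1.40), Sema3e (0.38), Unc5c (0.069) and Sema4c (0.051), and the cause was not tested. Leaving out 1 library, or control 1 and dKO 1 together, gave 881 to 1421 higher and 1261 to 1618 lower genes, the lowest of the higher counts without dKO 3 (881) and dKO 2 (905). It gave 9 to 12 higher and 15 to 20 lower members, a ligand median of -0.32 to -0.071 and a receptor median of -0.29 to -0.039, the value nearest 0 without control 4. Without control 1 and dKO 1, 28 members were called, 26 of them among the 33. Sema4c, which was never called, also turned with quantile normalization (0.0021) and without dKO 2 (0.029), control 1 (0.028), control 4 (0.079) or control 1 and dKO 1 (0.013), within -0.12 to 0.079 over all such fits. Replicate numbers 1 and 2 occur in both groups, but same-numbered pools did not deviate together (correlations of deviations -0.18 and -0.20), so the numbers were not read as pairs. With a replicate block 580 genes were higher and 780 lower, with 6 higher and 12 lower members. The ligand median was -0.20 and the receptor median -0.060, and Ephb4 (0.050) and Sema4c (0.063) turned. The numbers of dKO 3 and control 4 occur in 1 group only, so these pools did not inform the log2 changes of that fit. Its changes rested on pools 1 and 2 of each group. Members under about 20 reads in a pool are limited by depth. Examples are Sema4a in the dKO pools, Epha5 in dKO 2 and dKO 3, Ephb6 in dKO 1 and Sema3g in control 4.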
